A study of Bos taurus with 24 samples.

Results

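A set of 27 genes was read at a clear level in some cows and at almost no level in others, among 24615 genes listed for all cows (0.11%). The genes were selected on their own counts in the granulosa cells of 23 cows. A gene was taken when it had 3 or more CPM (counts per 1000000 counts of the library, scaled between libraries with edgeR's TMM method) in at least 5 cows and under 0.3 CPM in at least 5 cows. A cow is called present for a gene at 3 CPM or more, absent under 0.3 CPM and between otherwise. Because these values chose the genes, the splits are given as a description and were not tested. The scores of the cows, their total counts and the number of genes detected were not used by the rule.

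Granulosa cells line the antral follicle and surround the oocyte. They convert theca androgens to oestradiol, and they pass nutrients and signals to the oocyte through gap junctions. Their transcripts are known to change as a follicle grows, is selected or becomes atretic.

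The RNA came from the pooled granulosa cells of all antral follicles of both ovaries, with 1 library for each of 24 slaughtered, untreated Holstein cows in the luteal phase whose cycles had not been synchronised. The oocytes of the same cows went through in vitro production of embryos (IVP), which gave each cow a blastocyst (BL) rate, a kinetic score and a morphology score. The kinetic and morphology scores are means over the blastocysts of a cow, with 1 as the lowest class. Cows 1 and 15 gave no blastocysts, so their 0 for these scores marks that none could be scored. The bulls used for insemination had a high Nordic Total Merit (NTM) index for 15 cows (high-NTM cows) and a low index for 9 cows (low-NTM cows). Cow 8, a low-NTM cow, was left out by the study as an outlier with a low share of uniquely mapped read pairs. The rule left it out too, so 15 high-NTM and 8 low-NTM cows were compared. Leukocytes had been reduced with beads against CD45 and erythrocytes with a lysis buffer. The cells were collected before insemination, so the NTM class is a control comparison.

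The deposited counts name genes by Ensembl identifier only, and the gene table used here held 0 of these identifiers. The genes are therefore given by identifier, their functions and positions are not given, and the granulosa label could not be checked against marker genes. Levels in CPM are not divided by gene length, so they are compared between cows and not between genes. In bulk RNA, fewer cells that express a gene and less RNA per cell cannot be told apart.

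Between 15525201 and 27074496 read pairs were counted per cow. At these depths, 0.3 CPM corresponded to 4.76 to 9.79 counts and 3 CPM to 47.6 to 97.9 counts. The highest count in an absent cow was 8, and the lowest count in a present cow was 53, over all 27 genes. Absent therefore means a few counts or none, and 14 genes had a count of 0 in at least 1 cow. Cow 24 stood apart, with the lowest total count and the most genes detected (21629, against a median of 16400).

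Absence was uncommon among genes that reached 3 CPM in at least 5 cows. Of 11015 such genes, 10743 had no absent cow, 108 had 1, 73 had 2, 43 had 3 and 21 had 4. The 27 members (0.245%) were those with 5 or more. Each member was present in 5 to 17 cows and absent in 5 to 17 cows. There were 11 members present in exactly 5 cows and 13 absent in exactly 5 cows, so many sat at the edge of the rule. At the present level, the members nearest to the limit were ENSBTAG00000008259, with a 5th highest value of 3.01 CPM, ENSBTAG00000002135 (3.03) and ENSBTAG00000007409 (3.19). The nearest genes outside were ENSBTAG00000006377 (2.97 CPM), ENSBTAG00000019107 (2.96) and ENSBTAG00000039196 (2.96). At the absent level, the 5th lowest value was 0.292 CPM for ENSBTAG00000025782, the member nearest to the limit, and 0.310 CPM for ENSBTAG00000000431, the nearest gene outside.

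The 27 genes differed in how they split the cows. Clustering of their levels over the cows (average linkage on 1 minus Spearman's rho, cut at 0.4) gave a module of 14 genes, 2 pairs and 9 genes that joined no other. The heat map of levels by cow shows both kinds of pattern. The module was graded, with 10 to 13 of the 23 cows between the limits for each of its genes. The 13 genes outside the module had 1 to 12 cows between, with a median of 8. The largest step between neighbouring cows, taken against at least the level of 3 counts, was 1.53-fold to 3.36-fold for the module genes and 1.62-fold to 13.8-fold for the others. A step of 5-fold or more was found for 7 of the 13 genes outside the module and for 0 of the 14 in it. The step could lie anywhere in the range, and for ENSBTAG00000016573 it only set cow 15 above the rest.

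**Figure D1:**
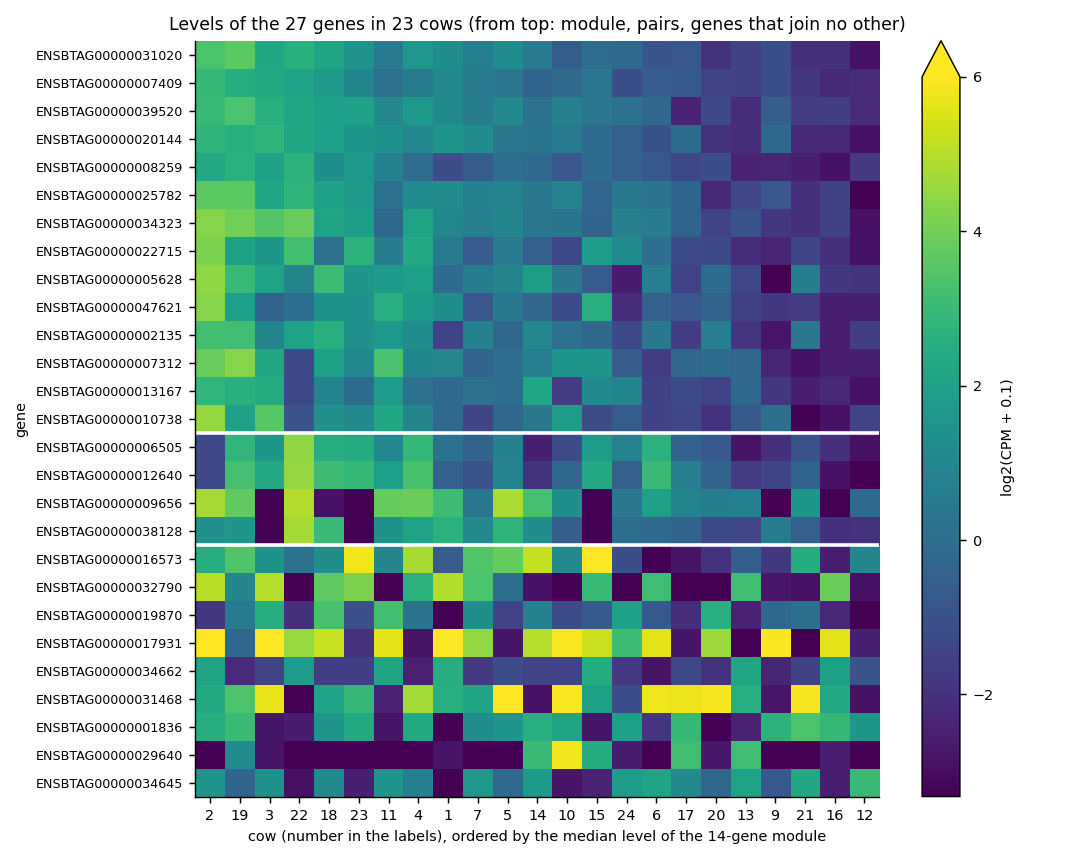
Levels of the 27 genes (vertical axis) in 23 cows (horizontal axis, ordered by the median level of the 14-gene module), as log2(CPM + 0.1) with the colour scale capped at 6. The 14 module genes at the top fade together from cow 2 on the left to cow 12 on the right, while the genes of the bottom block each have their own order of cows.

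ENSBTAG00000017931 had the cleanest split of all members. It was present in 15 cows, with a median of 47.2 CPM, and absent in 7 cows (4, 5, 12, 13, 17, 21 and 23). Only cow 19 lay between, at 0.797 CPM. The lowest present cow was cow 24 at 8.57 CPM and the highest was cow 1 at 135 CPM. The lowest present cow was thus 10.8-fold above cow 19, and no absent cow had more than 4 counts. Both NTM classes held present cows (10 of 15 high-NTM cows and 5 of 8 low-NTM cows).

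ENSBTAG00000031468 fell into 3 bands of cows. It was near 0 in cows 9, 11, 12, 14 and 22, at no more than 0.0879 CPM, and cow 24 had 0.378 CPM. The step above cow 24 was 10.2-fold. Above it, 9 cows lay from 3.87 to 10.2 CPM and 8 cows from 26.1 to 97.9 CPM. The 2.55-fold step between these cows was the widest above cow 24. It was within the range of the largest steps of the graded module genes (1.53-fold to 3.36-fold). The 8 higher cows included both NTM classes, with cow 5 at the top.

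ENSBTAG00000029640 was absent in most cows. It was absent in 17 cows, at no more than 0.0733 CPM, and cow 19 lay between at 2.24 CPM. The present cows were cow 10 (56.0 CPM), cow 17 (8.78 CPM), cow 13 (8.72 CPM), cow 14 (8.01 CPM) and cow 15 (5.37 CPM). Cow 10 therefore stood 6.37-fold above the next cow.

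ENSBTAG00000032790 was present in 11 cows and absent in 10. Its absent cows reached no more than 0.0472 CPM, which is 1 count. Cow 5 (0.942 CPM) and cow 19 (1.84 CPM) lay between, and the present cows ran from 6.24 to 31.6 CPM with a median of 12.9 CPM. It was present in 9 of 15 high-NTM cows and 2 of 8 low-NTM cows, and absent in 6 high-NTM cows and 4 low-NTM cows.

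ENSBTAG00000034662 was present at a low level in 7 cows, from 3.46 to 5.49 CPM. The remaining 16 cows reached no more than 0.426 CPM, and 13 of them were absent. The step was 8.12-fold. All 7 present cows (1, 2, 11, 13, 15, 16 and 22) were high-NTM cows, and no low-NTM cow was present.

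ENSBTAG00000001836 was absent in 8 cows, at no more than 0.165 CPM, and lay between 2.27 and 10.2 CPM in the other 15. The step of 13.8-fold was the largest of the 27 genes. The absent cows were cows 1, 3, 6, 11, 13, 15, 20 and 22, among them both cows that gave no blastocysts (cows 1 and 15).

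The other genes outside the module were less sharply split. ENSBTAG00000009656 was absent in 6 cows, at no more than 0.0384 CPM, and present in 9 cows, at 3.79 to 30.6 CPM. ENSBTAG00000016573 ranged from 0 to 396 CPM. Its highest value, in cow 15, was 7.17-fold above the next cow (cow 23, 55.3 CPM). ENSBTAG00000019870 was present in 5 cows, at 3.91 CPM in cow 24, 5.47 CPM in cow 3, 5.82 CPM in cow 20, 9.05 CPM in cow 11 and 9.72 CPM in cow 18. The strip plot of the cleanest splits shows that the last of the 12 genes no longer have an empty range between the limits.

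**Figure D2:**
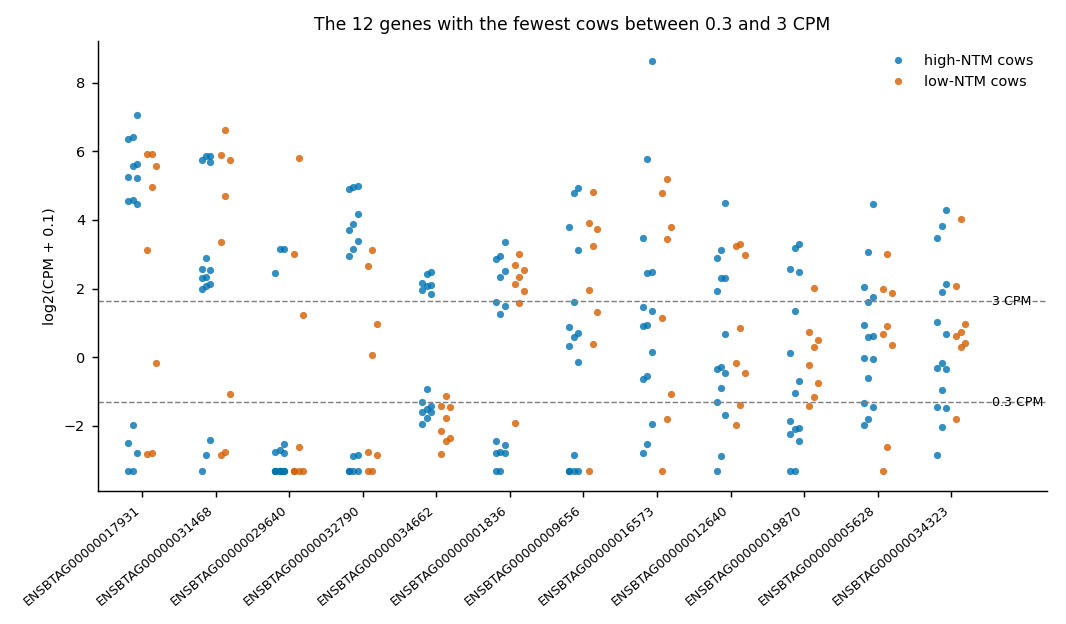
Level of 12 members (horizontal axis, cleanest split first) in each of 23 cows, as log2(CPM + 0.1), with 1 point per cow coloured by NTM class and dashed lines at 3 and 0.3 CPM. The first 3 genes have 1 cow each between the lines, and ENSBTAG00000034323 at the right has 11.

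The module genes shared 1 order of cows. Over the 91 pairs within the module, Spearman's rho lay between 0.543 and 0.976, with a median of 0.754. In 90 of these pairs (98.9%) no cow was present for 1 gene and absent for the other. The 4 genes with the highest mean rho to the rest of the module were ENSBTAG00000031020 (0.851), ENSBTAG00000007409 (0.841), ENSBTAG00000039520 (0.836) and ENSBTAG00000020144 (0.825). These correlations are across cows of levels that chose the genes, and all points share library and scaling. The module was itself formed on rho, so high rho within it and lower rho outside it were built in by the clustering.

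ENSBTAG00000031020 was the most central gene of the module by mean rho. Its level ran from 0.0387 CPM in cow 12 to 12.3 CPM in cow 19, with a median of 1.32 CPM. It was present in cows 2, 3, 4, 18, 19 and 22 and absent in cows 12, 13, 16, 20 and 21. The 12 remaining cows filled the range between the limits without a gap. ENSBTAG00000007409 ran from 0.110 to 7.46 CPM, with a median of 1.01 CPM, and was absent in the same 5 cows. It was present in 5 of the 6 cows in which ENSBTAG00000031020 was present. Of the other module genes, ENSBTAG00000005628 (0 to 22.0 CPM, median 1.42) and ENSBTAG00000034323 (0.0387 to 19.7 CPM, median 1.44) had 10 and 11 cows between the limits.

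By cow, the module was highest in cow 2, with a median over its 14 genes of 11.3 CPM, and next in cow 19 at 7.00 CPM. In both cows all 14 genes were present. Cow 3 (4.72 CPM), cow 22 (4.27 CPM) and cow 18 (3.78 CPM) followed, with 11, 9 and 9 genes present. At the other end, cow 12 (0.0774 CPM) and cow 16 (0.110 CPM) had all 14 genes absent, and cow 21 (0.142 CPM) had 12 absent. The median cow had a module median of 1.22 CPM. The highest and lowest cows were not of 1 NTM class: the module median ran from 0.0774 to 11.3 CPM over 15 high-NTM cows and from 0.189 to 7.00 CPM over 8 low-NTM cows.

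The genes outside the module differed in how far they followed this order. Their mean rho to the module genes ran from -0.221 (ENSBTAG00000034645) to 0.555 (ENSBTAG00000006505), and ENSBTAG00000012640 (0.531), ENSBTAG00000016573 (0.483) and ENSBTAG00000038128 (0.408) came next to the highest. Over the 78 pairs among them the median rho was -0.0175, with a range from -0.517 to 0.942, and 2 pairs reached 0.7. In only 1 of these pairs (1.28%) was there no cow present for 1 gene and absent for the other, and the median number of such opposite cows was 6. Between the module and the other genes, the 182 pairs had a median rho of 0.253 and a highest rho of 0.741. The pair with the lowest rho was ENSBTAG00000019870 and ENSBTAG00000034662 (rho -0.517), with 9 cows in which 1 was present and the other absent. The most such cows, 14, were found for ENSBTAG00000017931 and ENSBTAG00000029640, whose rho was -0.00347.

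**Figure D3:**
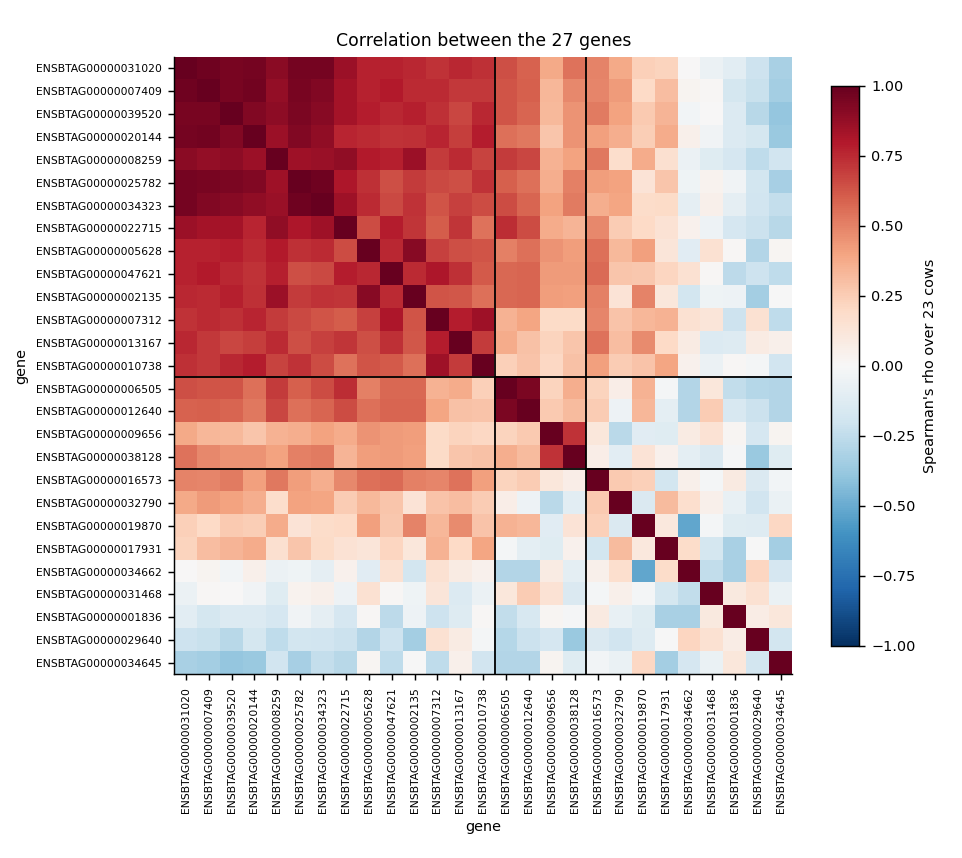
Spearman's rho over 23 cows between each pair of the 27 genes, on a colour scale from -1 to 1, with lines around the 14-gene module, the 2 pairs and the genes that join no other. The module forms a block with rho from 0.543 to 0.976, and most of the bottom block is pale.

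Of the pairs outside the module, 1 was closely matched. ENSBTAG00000006505 and ENSBTAG00000012640 had a rho of 0.942. The 7 cows in which the first was present (4, 6, 15, 18, 19, 22 and 23) were all present for the second, and the 5 absent cows of the first were absent for the second too. Both were highest in cow 22, at 21.4 CPM and 22.5 CPM. ENSBTAG00000009656 and ENSBTAG00000038128 had a rho of 0.720 and were also both highest in cow 22, at 30.6 CPM and 27 CPM.

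Each member was also compared with the 12867 other genes past the low-count filter, members included. Each module gene had between 29 and 590 genes with a rho of 0.8 or more (median 374). The 13 genes outside the module had between 0 and 7 such genes, with a median of 0. ENSBTAG00000017931, ENSBTAG00000029640, ENSBTAG00000031468 and ENSBTAG00000034645 had no gene at a rho of 0.7 or more, and their closest genes reached 0.619, 0.617, 0.637 and 0.629. ENSBTAG00000001836 was matched by ENSBTAG00000026437 with a rho of 0.937, a gene that ran from 0 to 8.98 CPM and was also absent in 8 cows. ENSBTAG00000006505 and ENSBTAG00000012640 were both closest to ENSBTAG00000012638 (rho 0.961 with each), which ran from 0.271 to 86.2 CPM and was absent in 1 cow. The module gene ENSBTAG00000031020 was closest to ENSBTAG00000002296 (rho 0.990), which ran from 0.0774 to 12.9 CPM.

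The number of members present per cow was 8.48 ± 5.93 (mean ± SD, n = 23 cows), from 1 in cow 12 to 21 in cow 2. It was 8.73 ± 6.05 for 15 high-NTM cows and 8.00 ± 6.07 for 8 low-NTM cows (mean ± SD), a difference far below the spread within each class. The number of members absent ran from 1 in cow 19 to 22 in cows 12 and 16. Cow 16 had 5 members present, 22 absent and none between, and all 5 present members were outside the module. The module varied most, with 0 to 14 of its genes present per cow (3.43 ± 4.81, mean ± SD). Of the 13 other genes, 1 to 8 were present per cow (5.04 ± 1.82).

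The 23 cows were then set against their scores and libraries. Over the 23 cows, the module median on the log2(CPM + 0.1) scale had a Pearson's r of -0.175 and a Spearman's rho of -0.0555 with BL rate. With kinetic, r was -0.00581 and rho 0.0169. With morphology, r was 0.224 and rho 0.366, and they were 0.422 and 0.438 once cows 1 and 15, which lie farthest from the median morphology, were removed. These are descriptions of a measure built from the selected genes, so no p-value is given.

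Of the measures taken from the libraries, total count had an r of -0.149 and a rho of -0.202 with the module median. The number of genes detected, counted without the 27 members, had an r of -0.00282 and a rho of 0.364. Without the 2 cows farthest from the median (cows 20 and 24), r was 0.522 and rho was 0.556, so these cows decided the linear value. The number of members present had a rho of 0.184 with genes detected in 23 cows and of 0.440 without cows 20 and 24. The rho of the number present was -0.0333 with BL rate, 0.0399 with kinetic, 0.214 with morphology and 0.0784 with total count.

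The closest relation was with the first principal component of 12841 genes that were not members, which held 38.2% of the variance of log2(CPM + 0.1). The module median had an r of 0.883 and a rho of 0.880 with this component (the sign of a component is arbitrary). Without the 2 cows farthest from its median (cows 12 and 19), r was 0.857 and rho was 0.844. For the number of the 13 other genes present, rho with the component was 0.509. The study had a term for RNA integrity in its own expression model. The RNA integrity, age and sampling date of the cows were not used here, so their part in the order of the cows was not tested.

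**Figure D4:**
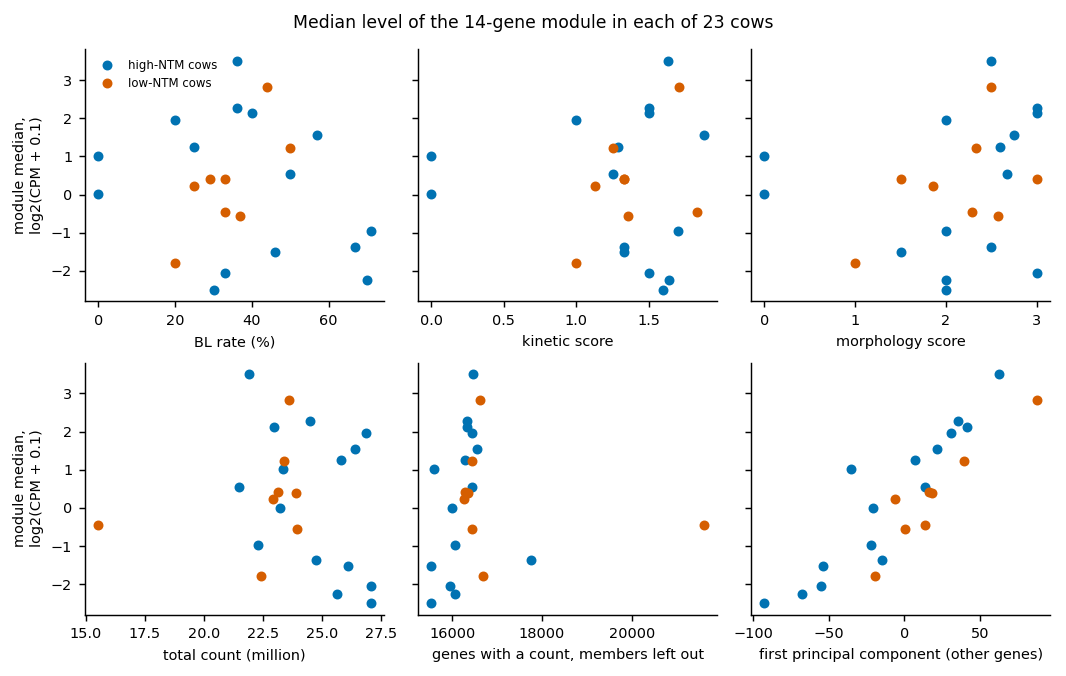
Median level of the 14 module genes, as log2(CPM + 0.1), against the 3 IVP scores, the total count, the number of genes detected and the first principal component of the other genes, with 1 point per cow coloured by NTM class. The points rise with the component (rho 0.880) and are scattered against the scores, and cow 24 lies alone at the right of the panel of genes detected.

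Each gene was then tested for a relation to the scores with edgeR's quasi-likelihood test over 12868 genes, with NTM class as covariate for the scores and library measures. The scores were used as labelled, including the 0 of cows 1 and 15 for kinetic and morphology. The study instead first adjusted its scores for the bull and also modelled RNA integrity, age and sampling date. Cows that shared a bull were treated here as independent. All 27 members passed the low-count filter, which the rule guarantees. A false discovery rate (FDR, the Benjamini-Hochberg adjusted p over all genes tested) under 0.05 was the threshold.

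For BL rate, 0 of 27 members passed the threshold, against 0% of all genes tested. At an unadjusted p under 0.05 there was 1 member (3.7%), against 2.95% of all genes. DESeq2's Wald test gave 0 members at either threshold, and the 1 member of edgeR became 0 without cow 15, 17 or 20 and 2 without cow 22. Of the 27 slopes, 9 were positive, and the median was -0.13 on the log2 scale per 20 percentage points, against a median of 0.00 over all genes. These medians are not like for like, because the members were chosen for a wide spread between cows.

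For kinetic, 0 members passed, against 0.00777% of all genes. At an unadjusted p under 0.05 there were 3 members (2 with positive and 1 with a negative slope), or 11.1% against 3.97% of all genes. DESeq2 gave 0 members past its adjusted threshold and 2 of 26 tested at an unadjusted p under 0.05. Without cow 15 the 3 members became 0, and without cow 1 they became 1. The median slope was 0.61 on the log2 scale per unit, against 0.02 over all genes. ENSBTAG00000001836 had the smallest unadjusted p of the positive slopes, with a slope of 2.96 ± 1.15 (SE, n = 23; unadjusted p = 0.0174 and FDR = 0.969 by edgeR). ENSBTAG00000034645 had a slope of 2.65 ± 1.18 (p = 0.034 and FDR = 0.969 by edgeR). The 2 cows without blastocysts, with a kinetic score of 0, were absent for both genes. Without cows 1 and 15, the slopes were 1.67 and 0.68 (FDR of 0.986 and 0.989 by edgeR).

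For morphology, 0 members passed, against 0.00777% of all genes. At an unadjusted p under 0.05 there were 5 members (3 with positive and 2 with negative slopes), or 18.5% against 11% of all genes. DESeq2 gave 0 members past its adjusted threshold and 8 of 25 tested at an unadjusted p under 0.05. Without cows 1 and 15, 10 of 27 members (37%, 9 with positive slopes) had an unadjusted p under 0.05, against 10.9% of all genes, and none passed the FDR threshold. Without cow 9 or cow 22 there were 3 members (11.1%). Positive slopes were found for 23 of the 27 members, against 51.9% of all genes, and the median slope was 0.60, against 0.01. Since 14 of the 27 genes follow a similar order of cows, these slopes are not independent of each other. The members were also chosen for a wide spread between cows, so their median slope is not like for like with that of all genes. Among the module genes, ENSBTAG00000008259 ran from 0.0367 to 6.29 CPM (median 0.630) and had a slope of 0.99 ± 0.42 (SE, n = 23; p = 0.0268 and FDR = 0.43 by edgeR). ENSBTAG00000034323 had a slope of 1.07 ± 0.48 (p = 0.0355 and FDR = 0.433 by edgeR). Without cows 1 and 15 these slopes were 2.23 and 2.55 (FDR = 0.45 for both by edgeR).

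ENSBTAG00000029640 had a negative slope on morphology of -3.71 ± 1.41 (SE, n = 23; p = 0.0148 and FDR = 0.413 by edgeR). DESeq2 gave a slope of -5.54 but no p-value for this gene, so its test could not be compared. Its present cows had morphology scores of 1.86 (cow 10), 1.5 (cows 13 and 14), 0 (cow 15) and 2 (cow 17). Of the absent cows, cow 1 had a score of 0, which like that of cow 15 marks no blastocyst to score. The absent cows with blastocysts had scores from 1 (cow 9) to 3, so the groups overlapped. Without cows 1 and 15 the slope was -6.55 (FDR = 0.45 by edgeR).

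ENSBTAG00000016573 had negative slopes on all 3 scores, of -1.16 ± 0.50 for BL rate (n = 23; p = 0.0303, FDR = 0.977 by edgeR), -2.03 ± 0.77 for kinetic (p = 0.0144, FDR = 0.969) and -1.31 ± 0.48 for morphology (p = 0.0116, FDR = 0.4). A single library decided their direction. Cow 15, with 396 CPM and all 3 scores at 0, was far above the others, and without it the slopes were 1.35, 2.68 and 1.43.

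For the NTM class of the bull, 0 members passed the threshold in edgeR, against 0% of all genes. At an unadjusted p under 0.05 there was 1 member (3.7%), against 21.5% of all genes. This member was ENSBTAG00000034662, whose level was 0.157 to 5.49 CPM (median 0.426) for 15 high-NTM cows and 0.0412 to 0.359 CPM (median 0.156) for 8 low-NTM cows. The classes overlapped, because 8 high-NTM cows were at 0.426 CPM or below. The low-NTM cows were lower by a log2 difference of -3.57 ± 0.83 (SE, n = 15 and 8; p = 0.00026 and FDR = 0.133 by edgeR). In DESeq2's Wald test, this was the only member called of 27 (log2 difference -3.60, adjusted p = 0.00178), while 0.653% of all genes were called. Over all alternatives its adjusted p ran from 0.00178 to 0.141. Bull, herd and sampling date were not used here, and their part in this difference was not tested.

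**Figure D5:**
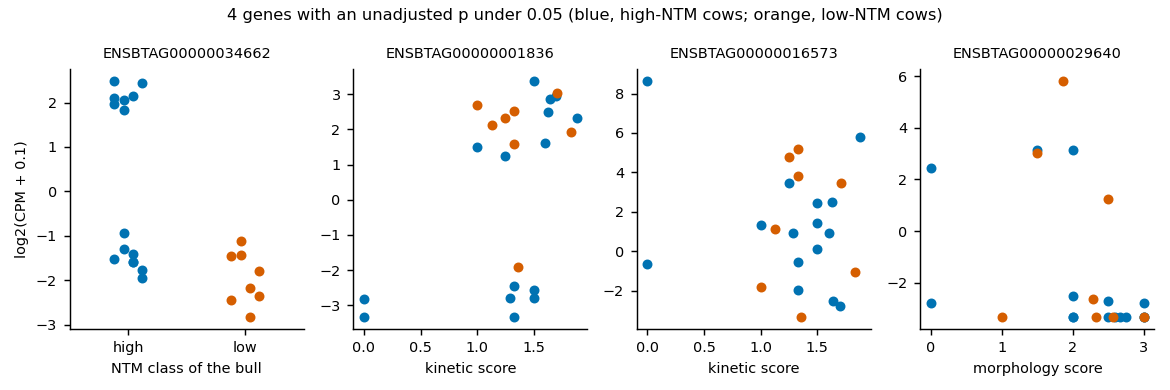
Levels of 4 members, as log2(CPM + 0.1) with 1 point per cow, against the NTM class (ENSBTAG00000034662), kinetic (ENSBTAG00000001836 and ENSBTAG00000016573) and morphology (ENSBTAG00000029640). The 7 present cows of ENSBTAG00000034662 are high-NTM cows, and cow 15 is the single high point at a kinetic score of 0 for ENSBTAG00000016573.

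For the total count, 0 members passed, against 0% of all genes, and 0 members (against 7.86% of all genes) had an unadjusted p under 0.05. DESeq2 gave 0 members past its adjusted threshold and 1 at an unadjusted p under 0.05. The median slope was -0.12 on the log2 scale per 1000000 counts. For the number of genes detected, 0 members passed, against 0.933% of all genes, and 1 member (3.7%) had an unadjusted p under 0.05, against 20.3% of all genes. Without cow 24, 0 members passed, against 15.9% of all genes, and 6 (22.2%) had an unadjusted p under 0.05, against 34.5% of all genes. DESeq2 gave 0 and 2 members at these thresholds in 23 cows. The direction of the slopes depended on cow 24. In 23 cows, 6 of 27 members had a positive slope by edgeR, against 47.1% of all genes, and the median was -0.11 per 1000 genes. Without cow 24, 20 of 27 were positive, against 6893 of 12796 genes, and the median was 1.65. Of the 6 members with an unadjusted p under 0.05 by edgeR without cow 24, 4 rose. The member found with edgeR in 23 cows was ENSBTAG00000029640, with a slope of -4.52 ± 1.86 per 1000 genes (SE, n = 23; p = 0.0237 and FDR = 0.176 by edgeR). Its slope was -8.12 without cow 24 and -1.56 in DESeq2. When the number of genes detected was replaced by its ranks, 8 of 27 members passed, against 28.1% of all genes. Of these, 7 were module genes that rose and the other was ENSBTAG00000029640, which fell (FDR = 0.00637 by edgeR). This share of the members (29.6%) was near that of all genes.

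Cow 8 was not used to choose the genes. It had a total count of 17917470, and 0 of the 27 genes were present in it. There were 11 genes absent and 16 between, with a highest level of 2.85 CPM. The module median was 0.475 CPM in cow 8, within the range of the other cows. None of the other 23 cows lacked a present member, the lowest being cow 12 with 1. The genes were chosen by their presence in those 23 cows, and the library of cow 8 had been left out by the study as an outlier. Cow 8 and the other cows are therefore not compared like for like.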

How the data were processed

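The authors deposited raw counts, that is read pairs per Ensembl gene, from a stranded total RNA library of each cow. Per the labels and the methods of the study, reads were mapped to UMD3.1 with STAR and counted with HTSeq in reverse strand mode, without normalization. From these counts, CPM were computed with TMM factors (edgeR 4.0.16, R 4.3.3) over 24615 genes in 23 cows. Genes under 1 CPM in more than 90% of cows were left out of the tests, which kept 12868.

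Each measure was fitted with edgeR's quasi-likelihood test, with DESeq2 1.42.0 as alternative and a Benjamini-Hochberg threshold of 0.05. The scripts were tested on simulated data. Total counts set the counting error of each value. Since each cow is 1 library, p-values measure the spread between cows. The genes and lists were chosen with earlier results of these data known. The genes named are the 12 cleanest splits, the 4 most central module genes, those at the limits of the rule and, per fit, up to 2 rising and 2 falling members with the smallest p. Genes named beside them as closest in pattern were chosen by rho. Marker and process lists could not be applied without gene names.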

Additional observations from a re-analysis of the deposited data

Results flagged for a closer look

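In the 8 low-NTM cows, 31 measures were checked for a cow far from the others by Dixon's ratio, and 4 exceeded its limit. Chance exceeds this limit in about 1 of 20 groups. That rate does not hold for levels of the 27 genes, which were chosen for their spread, so flags on these levels are a description. Cow 24 had a total count of 15525201, against 22425883 in the nearest cow, and 21603 genes detected besides the 27 members, against 16690. ENSBTAG00000001836 was lower in cow 6 than in the other low-NTM cows, at -1.92 on the log2(CPM + 0.1) scale against 1.59. ENSBTAG00000025782, a module gene, was higher in cow 19, at 3.64 against 1.19. In cow 8, which entered no comparison, 19 of the 27 genes had more than 3 counts, although none reached 3 CPM.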

How the results depend on the processing

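The number of genes chosen depended on the limits of the rule. It was 201 with 2 and 0.5 CPM, 6 with 5 and 0.1 CPM, 70 with 4 cows on each side, 7 with 6 cows, 19 without cows 20 and 24, and 26 to 29 with other scaling, thinned counts, cow 8 included or cow 24 left out. Of the 27 genes, 22 were kept with thinned counts, and 24 each without TMM and with cow 8 included. Leaving out 1 cow gave 15 to 27 genes, with 15 without cow 12 or cow 16 and 17 without cow 13, and 7 genes were kept each time. The largest module held 8 genes when calls replaced levels, and 11 to 16 under the other settings. Members called stayed at 0 under all alternatives for BL rate, kinetic, morphology and total count, with 1 for NTM class in DESeq2 and 8 for genes detected as ranks. Without cows 1 and 15, the slopes of ENSBTAG00000016573 turned to 1.26 (BL rate), 3.24 (kinetic) and 1.51 (morphology). Leaving out 1 cow gave ranges of -2.10 to 1.35, -3.99 to 2.68 and -1.78 to 1.43 for them, and cow 15 was the cow that turned them. Requiring 1 CPM in 90% of cows was not run, since no member can pass it. Levels under 3 counts (0.0919 to 0.189 CPM per cow) cannot be told from 0. No paired analysis was possible because each cow gave 1 library and the replicate numbers mark different animals.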
